A study of Homo sapiens with 6 samples.

Results

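The transcripts of *ATF4* and of 9 genes that depend on it for stress-induced transcription or that encode enzymes of serine synthesis and mitochondrial one-carbon metabolism were followed in MV4-11 cells. The 10 genes, *ATF4*, *DDIT3*, *TRIB3*, *CHAC1*, *ASNS*, *PHGDH*, *PSAT1*, *PSPH*, *SHMT2* and *MTHFD2*, were chosen by name and found by their Ensembl identifiers among the 61806 genes of the count table. All 10 had enough counts to be among the 19149 genes tested. MV4-11 is an established acute myeloid leukemia (AML) line of monocytic type that carries the *FLT3*-ITD mutation and a *KMT2A* rearrangement. RNA sequencing was performed on 3 libraries labelled shNC, from cells with a control short hairpin RNA, and 3 libraries labelled shATGL, from cells with a hairpin against *ATGL*, the lipase that begins triglyceride breakdown. The hairpins were delivered by lentiviral vectors into the same line, and cells of both groups were grown in RPMI-1640 medium with fetal bovine serum. Which of the designed hairpins was used is not given in the sources used here. The labels also do not say whether the replicates were separate cultures, so that p-values measure the spread between these libraries, which may be technical.

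ATF4 is a transcription factor controlled mainly at translation. Kinases that sense amino acid shortage, endoplasmic reticulum stress, heme shortage or double-stranded RNA phosphorylate the initiation factor eIF2, which lowers general translation and raises translation of the *ATF4* message. ATF4 then binds C/EBP-ATF response elements (CARE) near genes of amino acid synthesis and transport, among them *ASNS* and the serine pathway, and with other factors drives *DDIT3*, *TRIB3* and *CHAC1*. PHGDH, PSAT1 and PSPH make serine from the glycolytic intermediate 3-phosphoglycerate, and SHMT2 and MTHFD2 pass its one-carbon unit through mitochondrial folate to formate, which feeds purine and thymidylate synthesis.

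Promoter windows from RefSeq (GRCh38.p14), each running from 250 bases before to 50 bases after a transcription start, were found for 8 of the 10 genes and for neither *PSPH* nor *SHMT2*. They were searched on both strands for the CARE core TGATGNAA and for the E-box CACGTG, which do not overlap each other in these windows. The CARE core was present in 3.62% of all 35116 windows and the E-box in 7.26%. The 3 stretches below are shown because they hold every match found in the 8 genes, with the motif in capitals and each sequence written 5′ to 3′ on the strand of its gene. The first lies at chr7:97872453-97872492 on the minus strand, the second at chr15:40953246-40953285 on the plus strand, and the third at chr22:39520461-39520498 on the plus strand.
*ASNS* CARE core: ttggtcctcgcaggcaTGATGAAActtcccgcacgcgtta
*CHAC1* CARE core, read on the opposite strand: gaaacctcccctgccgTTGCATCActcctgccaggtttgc
*ATF4* E-box: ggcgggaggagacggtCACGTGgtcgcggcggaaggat
The core of *ASNS* lay 68 to 61 bases before a start, that of *CHAC1* 209 to 202 bases before, and the E-box of *ATF4* 82 to 77 bases before the first of its starts. These matches describe letters in a window and not occupied sites.

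The libraries held 59674064 to 74808280 counts. The 8 genes examined as markers of a myeloid and monocytic leukemia line were *CD33*, *FLT3*, *CD4*, *LYZ*, *CSF1R*, *ITGAM*, *SPI1* and *KMT2A*. All were detected, with single values from 47.3 (*KMT2A*) to 889 CPM (*LYZ*), which are read counts scaled to library size after TMM normalisation. Of 8 markers of other cell types, 6 were under 1 CPM in every library and 2 of those, *HBB* and *EPCAM*, were at 0 throughout. The highest was *PECAM1*, at 259.5 to 283 CPM. The targeted gene, *PNPLA2* (ATGL), gave 101, 97.0 and 107 CPM in shNC 1, 2 and 3. It gave 102, 98.1 and 104 CPM in shATGL 1, 2 and 3. Its log2 fold change of -0.01 (SE 0.06, n = 3 per group) had an adjusted p of 0.979 in edgeR's quasi-likelihood test with Benjamini-Hochberg adjustment. The values therefore give no check of the labels, and shATGL below means the libraries labelled so. Log2 fold changes are shATGL minus shNC, and exact permutation p-values of 3 against 3 libraries are two-sided and cannot go below 0.1.

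Levels of different genes were compared per length, as TPM, which divides each count by the length of the longest annotated transcript and scales every library to the same total. *ATF4* was the most abundant of the 10 at 401 ± 18.2 TPM (SD over the 6 libraries), above 98.4% of the tested genes with a length. The serine and one-carbon genes came next, with *PHGDH* at 180 ± 4.08 TPM, *SHMT2* at 160 ± 5.55 TPM and *PSAT1* at 114 ± 8.92 TPM. *TRIB3* followed at 81.2 ± 2.48 TPM, *MTHFD2* at 66.3 ± 1.77 TPM, *ASNS* at 40.9 ± 1.32 TPM and *DDIT3* at 31.1 ± 4.22 TPM. The lowest were *PSPH* at 12.6 ± 0.99 TPM and *CHAC1* at 2.98 ± 0.69 TPM, so that the 3 enzymes of serine synthesis ran at unlike transcript levels. *ASNS* and *DDIT3* were the one pair of neighbours in this order whose libraries overlapped. With the median length of each gene's basic transcripts in place of the longest, *MTHFD2* moved from rank 6 to rank 4, at 115 TPM, above *PSAT1* at 100.4 TPM and *TRIB3* at 73.0 TPM, and the other ranks stayed.

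**Figure D1:**
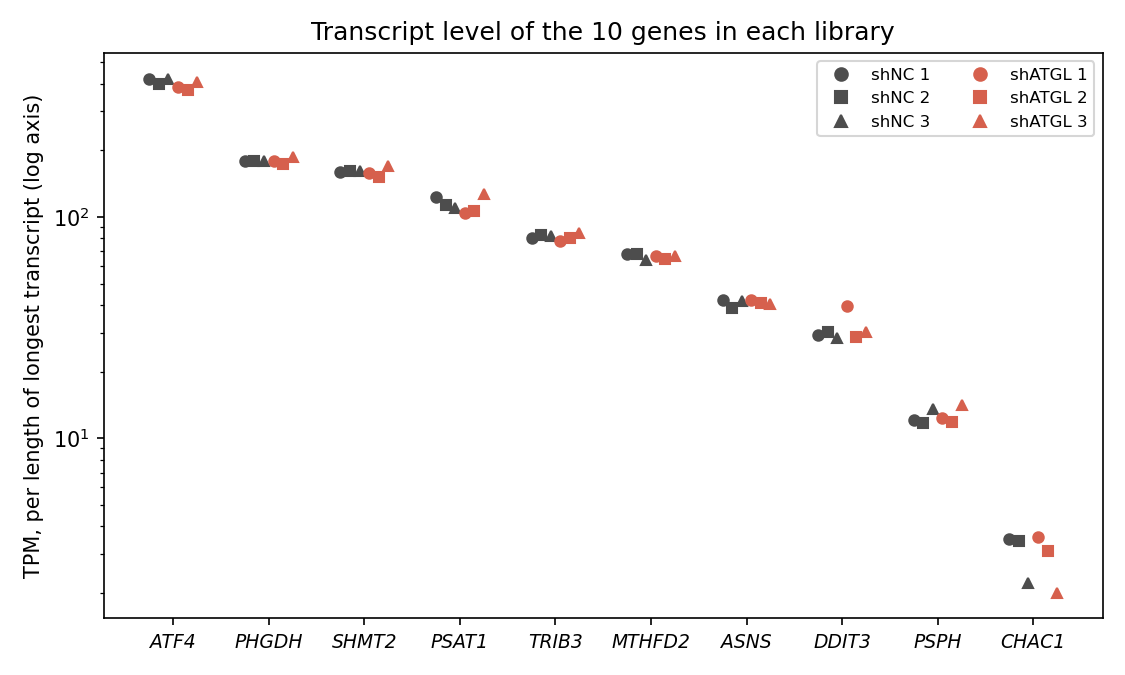
TPM of each of the 10 genes (log axis) in the 3 shNC libraries (grey) and the 3 shATGL libraries (red), in order of the mean. The levels run from 2.98 TPM for *CHAC1* to 401 TPM for *ATF4*, and the spread between libraries within a gene is small beside the steps between most genes.

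*ATF4* (ENSG00000128272, chr22:39519695-39522685 in GENCODE 29 for GRCh38, plus strand) had 383, 360 and 410 CPM in the libraries shNC 1, 2 and 3. In shATGL 1, 2 and 3 it had 318, 312 and 364 CPM. The values of shATGL 1 and 2 were below every shNC library, while that of shATGL 3 lay above shNC 2. The fitted level in shATGL was 86.2% of that in shNC (95% confidence interval 75.7 to 98.1%). The log2 fold change was -0.21 (SE 0.08), with an unadjusted p of 0.0293, an adjusted p of 0.399 in edgeR's quasi-likelihood test with Benjamini-Hochberg adjustment, and an exact permutation p of 0.2. *ATF4* was the one gene of the 10 with an unadjusted p under 0.05, against 5.94% of all tested genes lower and 5.77% higher at that threshold. The transcript was measured here and not the protein, whose synthesis is where ATF4 is mainly controlled.

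*DDIT3* (ENSG00000175197, chr12:57516588-57521737, minus strand), which encodes the pro-apoptotic factor CHOP, read 14.2, 14.5 and 14.6 CPM in shNC and 17.3, 12.6 and 14.3 CPM in shATGL. The shNC libraries were close to each other, and the shATGL libraries lay on both sides of them. The log2 fold change was 0.03 (SE 0.13), with an adjusted p of 0.950 in edgeR's quasi-likelihood test, and it was -0.11 without shATGL 1. *DDIT3* shares 982 bases of its locus with *MARS1* and 1028 with *MBD6* on the opposite strand. *MBD6* read 63.1, 64.3 and 65.5 CPM in shNC and 84.0, 81.4 and 70.3 CPM in shATGL. The strand setting of the counting is not given in the sources used here, so reads of *DDIT3* and of these neighbours in the shared bases cannot be told apart.

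*TRIB3* (ENSG00000101255, chr20:362835-397559, plus strand), a pseudokinase that feeds back on ATF4, read 90.7, 93.2 and 98.9 CPM in shNC and 79.2, 82.3 and 93.7 CPM in shATGL. As with *ATF4*, shATGL 1 and 2 were below every shNC library and shATGL 3 was among them. The log2 fold change was -0.15 (SE 0.08, adjusted p = 0.495 by edgeR). *CHAC1* (ENSG00000128965, chr15:40952962-40956519, plus strand), which degrades glutathione, read 2.95, 2.86 and 1.99 CPM in shNC and 2.70, 2.36 and 1.65 CPM in shATGL. Here shNC 3 and shATGL 3 were the lowest of their groups, the reverse of their place in *ATF4* and *TRIB3*. The log2 fold change was -0.21 (SE 0.25, adjusted p = 0.744 by edgeR), with an interval of 57.9 to 128% of the shNC level. With 1 library left out it ranged from -0.38 without shNC 3 and -0.37 without shATGL 1, through -0.11 without shNC 1 and -0.12 without shNC 2, to -0.04 without shATGL 3. *ASNS* (ENSG00000070669, chr7:97852118-97872542, minus strand), asparagine synthetase, read 44.8, 40.8 and 47.4 CPM in shNC and 40.5, 39.5 and 42.2 CPM in shATGL. Its groups overlapped through shNC 2 and shATGL 3, and the log2 fold change was -0.12 (SE 0.08, adjusted p = 0.547 by edgeR). *ASNS* lies within a longer gene on the same strand, ENSG00000284707, which held 390 to 720 counts per library. *ASNS* and *CHAC1*, the genes whose CARE cores are printed above, thus placed shNC 3 and shATGL 3 at opposite ends of their groups.

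The first enzyme of serine synthesis, *PHGDH* (ENSG00000092621, chr1:119648411-119744226, plus strand), read 259, 254 and 275 CPM in shNC and 234, 228 and 263 CPM in shATGL. *PSAT1* (ENSG00000135069, chr9:78297143-78330093, plus strand), the transaminase of the next step, read 122, 111 and 116 CPM in shNC and 93.6, 96.1 and 123 CPM in shATGL. Among the 3 serine enzymes the shATGL group split most widely in *PSAT1*, with shATGL 1 and 2 the lowest of the 6 libraries and shATGL 3 the highest. *PSPH* (ENSG00000146733, chr7:56011051-56051604, minus strand), the phosphatase that releases serine, read 12.0, 11.5 and 14.2 CPM in shNC and 11.0, 10.6 and 13.7 CPM in shATGL. Its highest values were those of shNC 3 and shATGL 3. The log2 fold changes were -0.12 (SE 0.07) for *PHGDH*, -0.16 (SE 0.11) for *PSAT1* and -0.09 (SE 0.14) for *PSPH*, and the adjusted p-values of edgeR's quasi-likelihood test were 0.526, 0.581 and 0.811. All 3 pairs of groups overlapped. Counts on the pseudogene *PSPHP1* reached 11.9% of those on *PSPH*, and how reads that match both were divided is not given in the sources used here.

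*SHMT2* (ENSG00000182199, chr12:57229327-57234935, plus strand), mitochondrial serine hydroxymethyltransferase, read 246, 247 and 267 CPM in shNC and 220, 214 and 256 CPM in shATGL. Only shATGL 3 reached the shNC range. The log2 fold change was -0.14 (SE 0.08, adjusted p = 0.521 by edgeR). *MTHFD2* (ENSG00000065911, chr2:74198562-74217565, plus strand), the mitochondrial methylene-tetrahydrofolate dehydrogenase, read 137, 136 and 137 CPM in shNC and 122, 119 and 131 CPM in shATGL. Relative to its level this was the tightest of the 10 genes in shNC (137 ± 0.25 CPM, SD, n = 3), and the one gene whose groups did not overlap, as was the case lower in shATGL for 9.38% of all tested genes and higher for 7.93%. In TPM, where *PHGDH* was tighter in shNC, the groups of *MTHFD2* overlapped (67.8, 68.3 and 63.7 in shNC, 67.0, 64.8 and 66.5 in shATGL). The fitted level in shATGL was 90.7% of that in shNC (95% confidence interval 82.3 to 100.02%). Its log2 fold change was -0.14 (SE 0.06), with an unadjusted p of 0.0503, an adjusted p of 0.427 by edgeR and an exact permutation p of 0.1, the smallest possible.

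**Figure D2:**
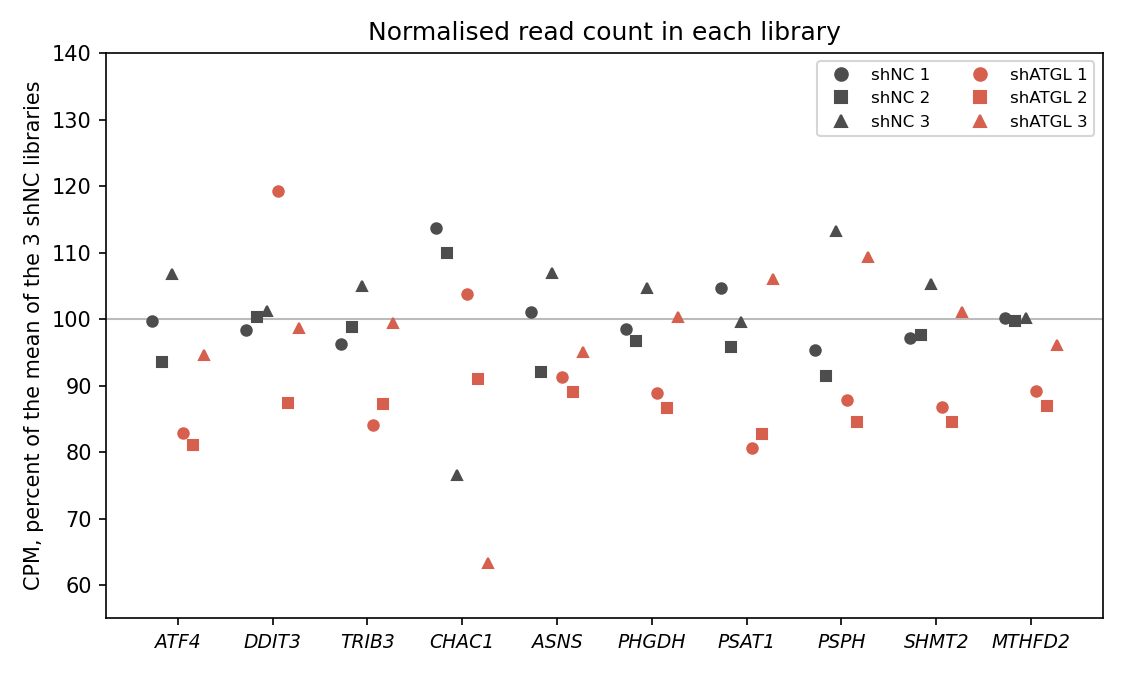
CPM of each gene in each library as a percentage of the mean of the 3 shNC libraries (grey symbols shNC, red symbols shATGL, the shape gives the replicate number). The red circles and squares (shATGL 1 and 2) lie together below the line in 8 of the 10 genes, and the red triangles (shATGL 3) lie closer to or above it except in *CHAC1*.

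No gene of the 10 passed an adjusted p under 0.05 in edgeR's quasi-likelihood test or in DESeq2, and each tool gave 1 gene with an unadjusted p under 0.05. Over all genes 0.00522% passed that threshold in the edgeR test, with or without the requirement of a fold change of 2, which is 1 gene of 19149. In CPM, 9 of the 10 genes were lower in shATGL, against 48.1% of all tested genes. That share ran from 27.9 to 61.4% between the classes of gene length described below. In TPM 6 of the 10 were lower, against 4760 of the 18566 tested genes with a length, and *ASNS*, *PHGDH*, *PSPH* and *DDIT3* were on the other side. The median log2 fold change was -0.14 over the 10 genes and 0.01 over all tested genes. On the TPM scale the median over all tested genes was itself shifted by 0.14, and that of the 10 genes was -0.01, which is -0.15 relative to all genes. The intervals of the other 9 genes than *ATF4* included no difference, and their lower ends lay between 57.9% (*CHAC1*) and 82.9% (*DDIT3*) of the shNC level, which are the largest losses that the intervals did not exclude. In bulk RNA, fewer cells with a transcript and less transcript per cell cannot be told apart.

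The library shATGL 3 decided how many genes passed. Without it, *ATF4* (-0.29, adjusted p = 0.0226), *TRIB3* (-0.23, 0.0374), *PHGDH* (-0.19, 0.0458), *PSAT1* (-0.29, 0.0157), *SHMT2* (-0.23, 0.0304) and *MTHFD2* (-0.19, 0.0328) passed an adjusted p under 0.05 in the edgeR fit, where the values are log2 fold changes and adjusted p-values. That was 6 of 10 genes, against 6.07% of 19954 tested genes that were lower at the same threshold in the same fit. These 6 genes are not separate results. Over the 6 libraries, Pearson's r of log2(CPM + 1) between them ran from 0.845 (*ATF4* with *PSAT1*) to 0.995 (*PHGDH* with *SHMT2*). In TPM each lay above at least 87.7% of the tested genes with a length, and the part of their level in this count was not tested. When shATGL 3 was kept but libraries were weighted by quality in limma's voom, *ATF4*, *PSAT1* and *MTHFD2* passed, 3 of 10 against 5.27% of genes lower. Leaving out any other library gave 0 of 10. *DDIT3*, *CHAC1*, *ASNS* and *PSPH* passed in neither of these fits. No label sets shATGL 3 apart, and its weight in the result was seen only after the values were known. In *ATF4*, *TRIB3*, *ASNS*, *PHGDH*, *PSPH*, *SHMT2* and, narrowly, *MTHFD2*, shNC 3 was likewise the highest of its group. In *CHAC1* shNC 3 and shATGL 3 were each the lowest. Only shATGL 3 was the highest of its group in *PSAT1*, and only shNC 3 in *DDIT3*.

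**Figure D3:**
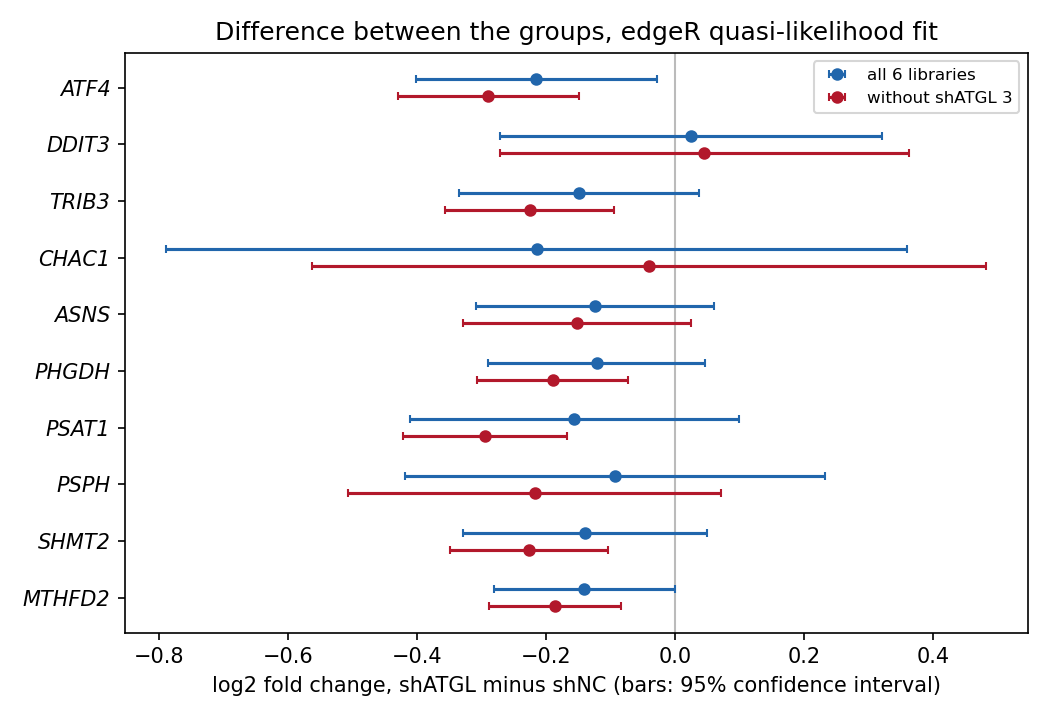
Log2 fold change of each gene (shATGL minus shNC) with its 95% confidence interval from the edgeR fit, in all 6 libraries (blue) and without shATGL 3 (red). With all libraries only the interval of *ATF4* excludes 0, and without shATGL 3 those of *ATF4*, *TRIB3*, *PHGDH*, *PSAT1*, *SHMT2* and *MTHFD2* do.

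Several properties of the libraries also differed. Mitochondrially encoded genes took 7.54, 7.41 and 8.17% of the counts of the shNC libraries, against 6.34, 6.51 and 7.66% of those of the shATGL libraries. From the highest share to the lowest, *PHGDH* and *PSPH* ordered the libraries likewise, except that shATGL 1 stood above shATGL 2. In *ATF4*, shNC 1 also stood above shATGL 3, while *CHAC1* placed shNC 3 and shATGL 3 lowest of all. The summed level of the 8 markers of a myeloid leukemia line was 1802, 1773 and 1857 CPM in shNC and 1651, 1681 and 1779 CPM in shATGL. That difference came largely from *LYZ*, the lysozyme gene, since the sum of the other 7 was 972, 968 and 968 CPM in shNC and 936, 962 and 1002 CPM in shATGL, with shATGL 3 the highest. The 8 markers of other cells summed to 262 to 285 CPM, nearly all of it from *PECAM1* at 259.5 to 283 CPM. With the genes cut into 5 classes of equal size by length, from the shortest to the longest, the median log2 fold changes were -0.06, -0.08, -0.02, 0.03 and 0.10. Across 18566 genes, which are not independent replicates, Spearman's rho of fold change with length was 0.22. The longest transcripts of the 10 genes measured 1067 to 4456 bases. *ATF4*, *CHAC1*, *ASNS*, *PSAT1* and *PSPH* fell in the class of 1431 to 2439 bases, where 61.4% of genes were lower in shATGL. *TRIB3*, *PHGDH* and *SHMT2* fell in that of 2440 to 3602 bases, with 53.1% lower. The share was 55.6% in the class of *DDIT3* and 43.1% in that of *MTHFD2*. With each library corrected for its trend in length and GC content, the median over the 10 genes was -0.17 and that over all genes -0.05. The part of these properties in the values above was not tested.

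Co-variation was then examined over the 6 libraries, as Pearson's r of log2(CPM + 1) for the 45 pairs of the 10 genes. The median r was 0.78, 21 pairs had an r of at least 0.8 and 12 were below 0. The 10 pairs among *PHGDH*, *PSAT1*, *PSPH*, *SHMT2* and *MTHFD2* had a median r of 0.89, ranging from 0.65 to 0.99. The 10 pairs among *ATF4*, *DDIT3*, *TRIB3*, *CHAC1* and *ASNS* had a median of 0.01, and 2 of them reached 0.8. That division came from 2 genes. In the 28 pairs without *CHAC1* and *DDIT3*, a set chosen after the values were seen, the median was 0.88 and the lowest 0.65.

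The closest pair was *PHGDH* and *SHMT2*, with r = 0.995 and rho = 0.943 (exact permutation p = 0.00278 and 0.0167, n = 6). Its adjusted p over the 45 pairs was 0.0625 for r, and 0.958 was the r left without shATGL 1 and 2, the libraries farthest from the median of *PHGDH*. *ATF4* went with *PHGDH* at r = 0.970 and rho = 0.943 (exact permutation p = 0.00694 and 0.0167), and r was 0.839 without the same libraries. *ATF4* and *ASNS* ranked the 6 libraries identically, with r = 0.921 and rho = 1 (exact permutation p = 0.00833 and 0.00278), and r was 0.984 without shATGL 1 and 2. No pair had an adjusted p of r under 0.05, and 0.0625 was the smallest. Some pairs rested on shATGL 1 and 2 alone. The r of *ATF4* with *PSAT1* went from 0.845 to -0.005 without them, that of *PHGDH* with *MTHFD2* from 0.906 to 0.012, and that of *SHMT2* with *MTHFD2* from 0.904 to -0.112.

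*CHAC1* and *DDIT3*, both classical genes of the stress arm, stood outside this pattern. The r of *ATF4* was -0.034 with *DDIT3* (rho = 0.20, exact permutation p = 0.961 and 0.714) and -0.23 with *CHAC1* (rho = -0.086, exact permutation p = 0.660 and 0.919). *CHAC1* was farthest below 0 with *PSPH*, at r = -0.713 and rho = -0.371 (exact permutation p = 0.126 and 0.497). Those negative values came with shNC 3 and shATGL 3. Without these libraries the r of *CHAC1* over the remaining 4 was 0.951 with *PSPH*, 0.917 with *PHGDH* and 0.895 with *MTHFD2*. Over all libraries but as deviations from the group mean, the r of *ATF4* was -0.884 with *CHAC1* and 0.013 with *DDIT3*. On these deviations *CHAC1* had an r of 0.247 with *DDIT3*, and from -0.956 (*TRIB3*) to -0.658 (*MTHFD2*) with the rest. *CHAC1* had the fewest counts of the 10 genes, and the ratio of its highest to its lowest library, 1.79, was the widest.

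The pattern was not confined to these genes, and it was not kept on the TPM scale. With *ATF4*, 15.2% of all tested genes had an r of at least 0.8, with *PHGDH* 15.6% and with *SHMT2* 15.5%, while with *DDIT3* 1.12% and with *CHAC1* 3.09% did. By the median, the r of *ATF4* with the other 9 genes was 0.92 and with all tested genes -0.03. Within groups, as deviations from the group mean, the median r was 0.74, and 18 of the 21 pairs stayed at 0.8 or more while 1 other pair reached it. With DESeq2 size factors 21 pairs had an r of at least 0.8 (median r 0.79), and with upper-quartile normalization 26 did (median r 0.86). On log2(TPM + 1), a scale added after the data were seen, 1 pair of 45 remained at an r of at least 0.8, *PHGDH* with *SHMT2*. The median r in TPM was 0.19 against 0.78. As the length of a gene is fixed, its TPM and CPM differ across libraries only in how each library was scaled. The points of each correlation share the library, its depth and its length trend, and the part of these in r was not tested.

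**Figure D4:**
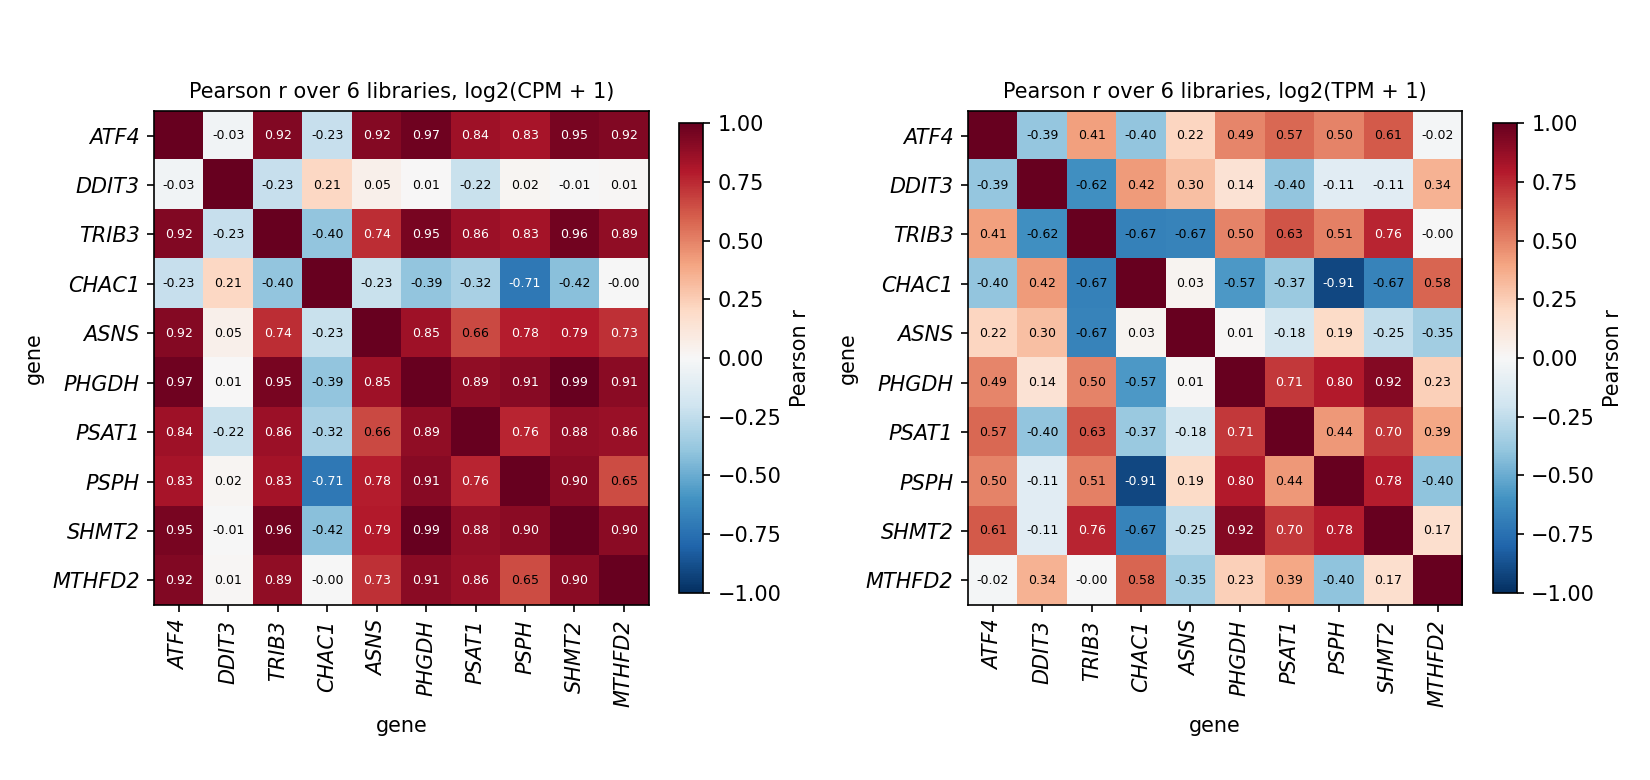
Pearson's r over the 6 libraries for each pair of the 10 genes (colour and printed value; red positive, blue negative), from log2(CPM + 1) on the left and log2(TPM + 1) on the right. On the left 8 genes form a red block that leaves out *DDIT3* and *CHAC1*, with 21 pairs at 0.8 or more, and on the right 1 pair does.

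The genes most like these in pattern were sought among 10808 others with a mean of at least 5 CPM. For *ATF4* they were *MLF2*, *MRPL28* and *MRPL14*, each at r = 0.998. *MRPL28* and *MRPL14* encode proteins of the mitochondrial ribosome. *MRPL28* read 74.2, 70.1 and 80.7 CPM in shNC and 59.3, 57.7 and 70.6 CPM in shATGL, the same order of libraries as *ATF4*. For *PHGDH* they were *SLC25A6*, an ADP/ATP carrier of the mitochondrial membrane, *MRPL37* and *SDHAF2*, each at r = 0.999. For *ASNS* they were *DDX23* at 0.995, *RRP36* at 0.992 and *SRSF9* at 0.989, genes of pre-mRNA splicing and ribosome assembly. None of these 9 is among the 10 genes or the pathway lists below.

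The wider pathway was described with 7 lists of 108 genes, of which 103 were tested. None passed an adjusted p under 0.05 in edgeR's quasi-likelihood test or in DESeq2, which gave 2 with an unadjusted p under 0.05. In edgeR, at an unadjusted p under 0.05, 7 were lower and 1 was higher, against the 5.94% and 5.77% of all genes given above. The median log2 fold change over the 103 genes was -0.04, and 63 (61.2%) were lower in shATGL. Over all tested genes 48.1% were lower, and 27.9 to 61.4% between the classes of gene length, which holds beside each list below. The lists were chosen with earlier results of these data known. The groups did not overlap in 15 genes that were lower and in 3 that were higher, which were *ATF3*, *EIF2AK3* and *VEGFA*. The share of such genes over the whole table was 9.38% lower and 7.93% higher.

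Upstream of ATF4, the 16 genes of the eIF2 kinases, eIF2, eIF2B and the eIF2 phosphatases had a median log2 fold change of -0.01, and none had an unadjusted p under 0.05. The largest value was that of *EIF2AK3*, which encodes the endoplasmic reticulum kinase PERK, at 0.22 (SE 0.11, unadjusted p = 0.0925), a gene named after its value was seen. The 25 tested genes among other ATF4 targets had a median of -0.08, with 15 lower. *ATF3*, a stress-induced partner of ATF4, was the highest, at 0.952, 0.958 and 1.30 CPM in shNC and 2.16, 1.33 and 1.45 CPM in shATGL. Its log2 fold change was 0.62 (SE 0.27, unadjusted p = 0.0494) on 57 to 160 counts per library, with shATGL 2 only just above shNC 3. *EIF4EBP1*, a translation repressor induced by ATF4, was lower by -0.24 (SE 0.10, unadjusted p = 0.0399) with overlapping groups, and is named after its value was seen. The 10 tested amino acid transporters had a median of -0.01 and none with an unadjusted p under 0.05.

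Of 12 aminoacyl-tRNA synthetases, with a median of -0.005, 1 had an unadjusted p under 0.05. This was the seryl-tRNA synthetase *SARS1*, at 174, 166 and 187 CPM in shNC and 147, 153 and 165 CPM in shATGL. Its log2 fold change of -0.18 (SE 0.07, adjusted p = 0.409 by edgeR) became -0.23 without shATGL 3, with an adjusted p of 0.0448. Downstream of the 10 genes, the 14 tested folate enzymes and carriers had a median of -0.11. Of them 12 were lower, against 48.1% of all tested genes. *MTHFS*, which returns folinic acid to the folate pool, read 5.82, 5.24 and 5.35 CPM in shNC and 3.70, 4.35 and 4.84 CPM in shATGL, a log2 fold change of -0.35 (SE 0.15). Every shATGL library was below every shNC library.

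The 13 tested genes of glycine cleavage and the methionine cycle were spread around 0, with a median of -0.01. *GCSH*, the lipoyl carrier protein of the glycine cleavage system, had the lowest unadjusted p of all listed genes, 0.0164. It read 27.5, 26.9 and 29.5 CPM in shNC and 23.5, 24.0 and 23.7 CPM in shATGL, with a log2 fold change of -0.24 (SE 0.08). All 3 shATGL libraries lay close together here, shATGL 3 included. *MAT2B*, a subunit of the enzyme that makes S-adenosylmethionine, read 123, 116 and 124 CPM in shNC and 108, 108 and 112 CPM in shATGL. The 13 purine synthesis enzymes had a median of -0.11, and 9 were lower, against 48.1% of all tested genes. *ADSL*, adenylosuccinate lyase, read 132, 129 and 142 CPM in shNC and 109, 123 and 125 CPM in shATGL. The adjusted p-values of these genes in edgeR's test ran from 0.392 to 0.426, and each exact permutation p was 0.1. *GCSH* has processed copies elsewhere in the genome, and how shared reads were divided is not given in the sources used here.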

How the data were processed

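RNA was sequenced in 3 shNC and 3 shATGL libraries of MV4-11 cells. The authors filtered reads with FASTP and deposited raw counts per Ensembl gene, without normalization. The aligner, the counter and its strand setting are not given in the sources used here. The submitters' processing notes name the mouse build mm10, whereas the gene identifiers are human. Positions and lengths were taken from GENCODE 29 (GRCh38), which matched 58254 of 61806 genes.

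The main test was that of edgeR 4.0.16 in R 4.3.3 (filterByExpr with a minimum count of 10 and a minimum total of 15, TMM, quasi-likelihood test, no block, Benjamini-Hochberg over all tested genes). A call needed a fold change of at least 2 beside an adjusted p-value below 0.05. DESeq2 1.42.0 and limma 3.58.1 (voom) served as alternatives, with other normalizations, filters, a length and GC correction and leaving out each library. The tests were checked on simulated data. Correlations used log2(CPM + 1) with exact permutation over the 720 pairings of 6 libraries. The genes and the pathway lists were chosen with earlier results of these data known. Named in addition were *PNPLA2*, from each list up to 2 genes in either direction with an unadjusted p under 0.05 and groups that did not overlap, and the 3 genes closest in pattern to *ATF4*, *ASNS* and *PHGDH*. Intervals cover the spread between these libraries. Total counts of 59674064 to 74808280 per library gave the 10 genes 99 to 29095 counts. Some genes that met these rules are not reported here.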

Additional observations from a re-analysis of the deposited data

How the results depend on the processing

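The count of all genes called, 1 in edgeR, was 24 with DESeq2, 3 with upper-quartile normalization, 0 with the replicate block and 266 with voom and quality weights, and ranged from 0 to 319 when 1 library was left out, with 319 without shATGL 3. The count of the 10 genes with an adjusted p under 0.05 was 0, against 3 with voom and a range of 0 to 6 with 1 library left out. The count with an unadjusted p under 0.05 was 1, against 2 with DESeq2 size factors in edgeR, 0 with upper-quartile normalization, 2 without a filter, 5 with the replicate block, 6 with voom, 3 with the length and GC correction, and a range of 0 to 6 with 1 library left out. The median log2 fold change of the 10 genes was -0.0107 as a ratio of mean TPM, an alternative chosen after the data were seen, and co-varying pairs numbered 1 in TPM against 21. Under the other co-variation settings they numbered 17 to 26, but under the replicate block, with 18 pairs, the median r was 0.12 against 0.78 and 21 pairs were below 0 against 12. With 1 library left out, *PNPLA2* ranged from -0.024 to 0.0327 (0.0327 without shNC 3, 0.018 without shATGL 2), *DDIT3* from -0.11 to 0.12 (-0.11 without shATGL 1), *CHAC1* from -0.38 to -0.04 and *PSPH* from -0.22 to 0.00566 (0.00566 without shNC 3). Of 140 alternative values for the 10 genes, 2 were reversed and 129 kept their direction and side of the threshold. Same-numbered libraries deviated from their group means with correlations of 0.0599, 0.233 and 0.343 over 13935 genes, against -0.291 to 0.192 for different numbers, and not every library correlated best with its own number. The numbers therefore did not establish pairs, and under the replicate block the median of the 10 genes was -0.14 and none passed an adjusted p under 0.05. The causes of these differences were not tested. With 3 libraries a group, the intervals of 9 of the 10 genes included no difference.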
